A study of Homo sapiens with 9 samples.

Results

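SR splicing factors are RNA-binding proteins that help the spliceosome choose exons, and the CLK kinases phosphorylate them. Levels of their mRNAs were followed in MiaPaCa2, a human pancreatic carcinoma cell line, after supernatant of naive pancreatic stellate cells was added. The 10 genes were SRSF1, SRSF2, SRSF3, SRSF5, SRSF6, SRSF7, SRSF11, TRA2A, CLK1 and CLK4, and every probe set annotated with 1 of these symbols alone was taken. This gave 37 of the 54675 probe sets of the array, or of the 41097 with a single symbol, and covered 9 of the 10 genes. The 3 probe sets that name SRSF2 also carry a microRNA's symbol, so SRSF2 has no value here.

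RNA was hybridised to Affymetrix arrays, 1 for each of 9 samples. The exposed cells were harvested after 1, 2, 3, 4, 5, 6 and 7 h and after 24 h, and 1 array of MiaPaCa2 control cells belongs to 24 h. All are the same cell line with no other treatment named in the labels. The control's title repeats the wording of the exposed samples, while its description calls it a control, and the description was followed. The stellate cells that gave the supernatant are described only as naive, and nothing says whether the samples came from separate cultures.

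SR proteins carry an RNA-binding domain and a tail rich in arginine and serine. The CLK kinases phosphorylate this tail and so move SR proteins out of nuclear speckles towards sites of splicing. SR genes and TRA2A hold very conserved poison exons, and CLK1 and CLK4 hold introns that are kept in part of their transcripts. Transcripts with a poison exon are cleared by nonsense-mediated decay, while CLK transcripts with kept introns can wait in the nucleus. Probe sets of 1 gene can therefore read different transcripts, and each is given on its own. The location of each probe set in its gene was not analysed here.

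CLK1 and CLK4 are close relatives and, of the 9 measured genes, were the pair whose levels went furthest above their 1 h level by 24 h, so the start regions of these genes are shown. Each is the 250 bases before the gene start in RefSeq's GRCh38.p14, on the minus strand and written 5′ to 3′. The CLK1 window is chr2:200864659-200864908 and the CLK4 window is chr5:178627051-178627300. Capitals mark the GC box GGGCGG, the short CRE motif TGACG and the E-box CACGTG, each on either strand.
CLK1: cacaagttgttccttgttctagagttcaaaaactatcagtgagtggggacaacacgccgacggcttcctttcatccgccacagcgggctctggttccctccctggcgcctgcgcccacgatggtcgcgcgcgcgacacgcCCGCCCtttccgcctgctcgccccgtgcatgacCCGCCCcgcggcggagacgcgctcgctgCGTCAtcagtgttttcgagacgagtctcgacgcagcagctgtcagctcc
CLK4: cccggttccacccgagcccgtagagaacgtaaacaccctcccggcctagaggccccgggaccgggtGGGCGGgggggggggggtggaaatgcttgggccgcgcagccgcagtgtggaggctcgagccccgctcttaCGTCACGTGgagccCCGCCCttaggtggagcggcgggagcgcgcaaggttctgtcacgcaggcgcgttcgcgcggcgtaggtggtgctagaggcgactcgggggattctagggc
Both windows hold 2 GC boxes, a motif in 42.6% of the 35116 RefSeq windows of this length, and 1 CRE motif, found in 21.2%. The CLK4 window also holds an E-box, found in 6.34% of windows, which overlaps its CRE motif. In these letters the CLK1 window has no E-box. Sequences were listed for 8 of the 10 genes. A match describes letters only.

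Values are RMA levels on the log2 scale, so a difference of 1 is a factor of 2. Of the 37 probe sets, 29 averaged at least 5 over the arrays and were tested among 22504 such probe sets with limma, and 8 were dimmer and are given as values. SRSF1 had 8 tested probe sets, SRSF3 had 5, SRSF7 had 4, SRSF11 and TRA2A had 3 each, SRSF5 and CLK4 had 2 each, and SRSF6 and CLK1 had 1 each. Error was estimated from how the 7 hourly arrays scatter around a straight line over time, and the lone 24 h and control arrays were taken to vary like them. A p-value here covers only differences between arrays, and these can be technical. Hours of exposure and time in culture cannot be told apart for the 1 to 7 h arrays, since the only control belongs to 24 h.

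The keratins KRT8, KRT18 and KRT19 lay between 10.05 and 13.55 and vimentin between 13.84 and 14.02 on all arrays, while the epithelial markers EPCAM (2.29 to 2.81) and CDH1 (3.26 to 3.66) were dim. Some markers of other cells were brighter in exposed arrays: all 8 exposed arrays were above the control for 5 of the 10 stellate cell and fibroblast markers, 3 of the 5 leukocyte markers and 3 of the 5 endothelial markers. The same order held for 5 of the 6 markers of the carcinoma line itself, and for 19.8% of all tested probe sets. ACTA2 and PDGFRB were above the control in 1 of the 8 exposed arrays. Summed on the linear scale, the 10 stellate cell and fibroblast markers reached 12.86 to 13.09 (log2) in exposed arrays and 12.50 in the control, with LUM and PDGFRB dim throughout. The 5 leukocyte markers with a probe set reached 8.53 to 8.93 against 7.45, through LYZ, while PTPRC stayed between 3.38 and 4.00. The 5 endothelial markers reached 7.67 to 7.88 against 7.48, with VWF at 4.31 to 4.51. Their part in the results below was not tested.

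The 5 h array and the control stood apart. Their median correlation with the other arrays was 0.991, against at least 0.996 for the others. The SD of the 5 h array about the lines over time was 0.206, against 0.083 to 0.118 for the other hourly arrays. Its actin signal at the 3′ end exceeded that at the 5′ end by 2.24, against 1.59 to 1.97 on the other arrays. Results that rest on it are given with and without it.

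**Figure D1:**
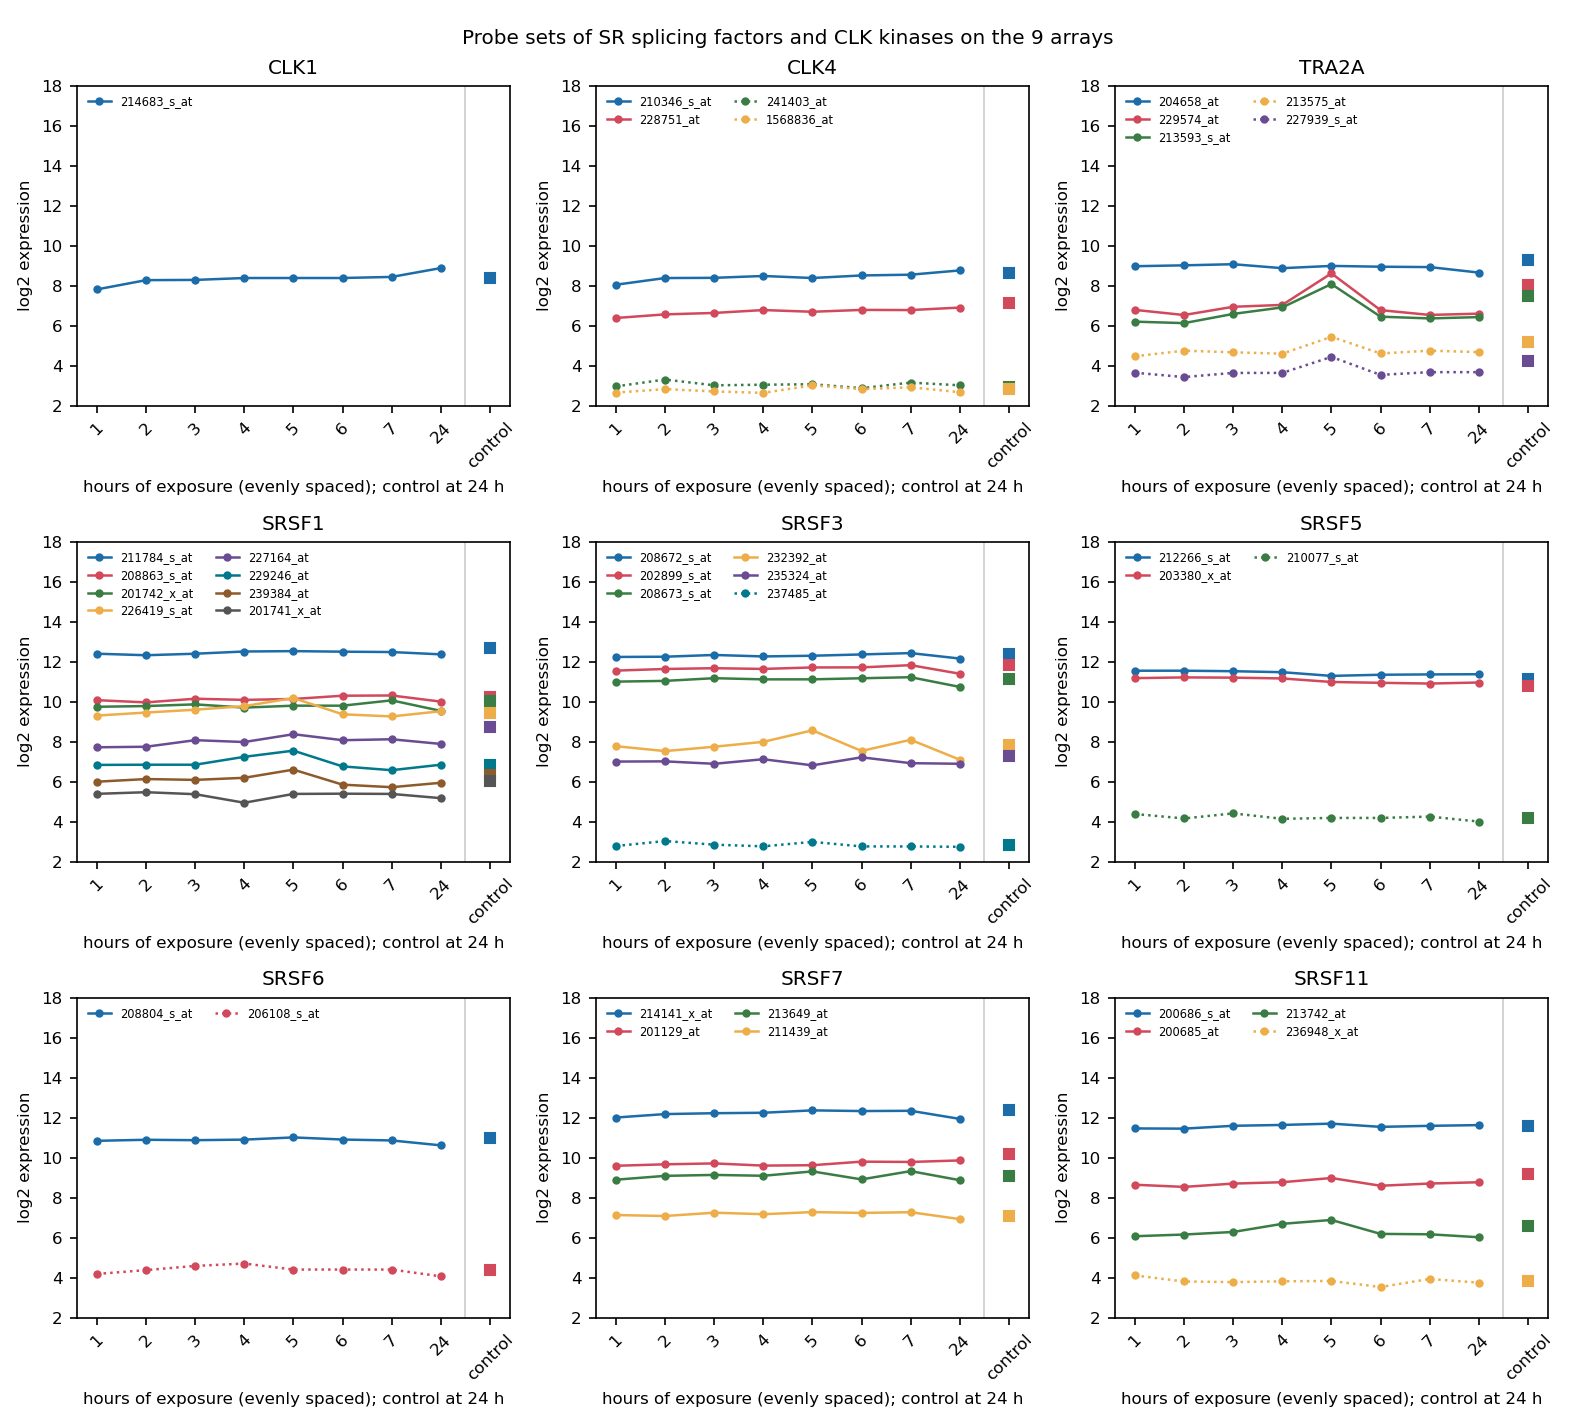
Log2 level of every probe set of the 9 measured genes (vertical axis) on the arrays of 1 to 7 h, 24 h and the control (horizontal axis, evenly spaced). Solid lines are tested probe sets, dotted lines those with a mean below 5, and squares the control; each point is 1 array. The TRA2A probe sets 229574_at and 213593_s_at read 8.62 and 8.08 at 5 h, above their control squares (8.02 and 7.48).

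CLK1, a kinase that phosphorylates the tails of SR proteins, was lowest at 1 h and highest at 24 h. Its probe set 214683_s_at read 7.81, 8.28, 8.29, 8.38, 8.39, 8.39 and 8.44 at 1 to 7 h, 8.88 at 24 h and 8.40 in the control. The control lay inside the exposed range, above the arrays of 1 to 6 h and below those of 7 h and 24 h. The 24 h level was 1.07 above the 1 h level, or 2.10-fold, and no other of the 22504 tested probe sets had so large a difference. Over all of them this difference between 2 single arrays had an SD of 0.167, and the top 0.1% began at 0.614. TRAF1, the next in rank, reached 0.85.

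CLK4, the closest relative of CLK1, was also lowest at 1 h and highest at 24 h among the exposed arrays in both tested probe sets. Its probe set 210346_s_at read 8.05, 8.38, 8.39, 8.49, 8.38, 8.51 and 8.55 at 1 to 7 h, 8.76 at 24 h and 8.63 in the control. The control was above the 7 hourly arrays and below the 24 h array. The 24 h level was 0.72 above the 1 h level, or 1.64-fold, and 6 of the 22504 tested probe sets had a larger difference. Its second probe set 228751_at read 6.38, 6.56, 6.64, 6.78, 6.69, 6.79 and 6.78 at 1 to 7 h, 6.90 at 24 h and 7.12 in the control. For this probe set all 8 exposed arrays were below the control, and 24 h was 0.52 above 1 h, with 65 tested probe sets larger. The 2 dim probe sets of CLK4, 241403_at and 1568836_at, stayed between 2.63 and 3.30 and were not lowest at 1 h and highest at 24 h.

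The fitted tests did not call this course. CLK1 at 24 h was 0.60 ± 0.14 (SE) above its mean of 1 to 7 h (adjusted p = 0.174), and its slope was 0.078 ± 0.024 per hour (adjusted p = 0.274). The CLK4 probe sets were 0.37 ± 0.11 and 0.24 ± 0.09 above their means at 24 h, with adjusted p of 0.237 and 0.322. None of the 22504 probe sets passed in either contrast, although 2976 and 2845 had an unadjusted p under 0.05, among them 11 and 10 of the 29 tested here. All 3 CLK probe sets were among both. CLK1 and CLK4 are similar genes, the names of 214683_s_at and 210346_s_at mark probes that can match several transcripts, and whether they share probes was not tested.

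Against the control, 1 of the 3 tested CLK probe sets passed. CLK4 228751_at fell by 0.46 ± 0.09 in the mean of 1 to 7 h (1.37-fold, limma adjusted p = 0.0201), a call that ended with no time term in the fit (0.0842). CLK4 210346_s_at was 0.23 ± 0.11 lower and CLK1 was 0.11 ± 0.14 lower, with adjusted p of 0.216 and 0.667. At 24 h CLK1 was 0.49 ± 0.18 above the control, or 1.40-fold (adjusted p = 0.166). The CLK4 probe sets stood 0.14 ± 0.15 above and 0.21 ± 0.12 below it, with adjusted p of 0.633 and 0.351. The difference between the CLK4 probe sets in the mean of 1 to 7 h was itself 0.22 ± 0.14 (adjusted p = 0.510).

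**Figure D2:**
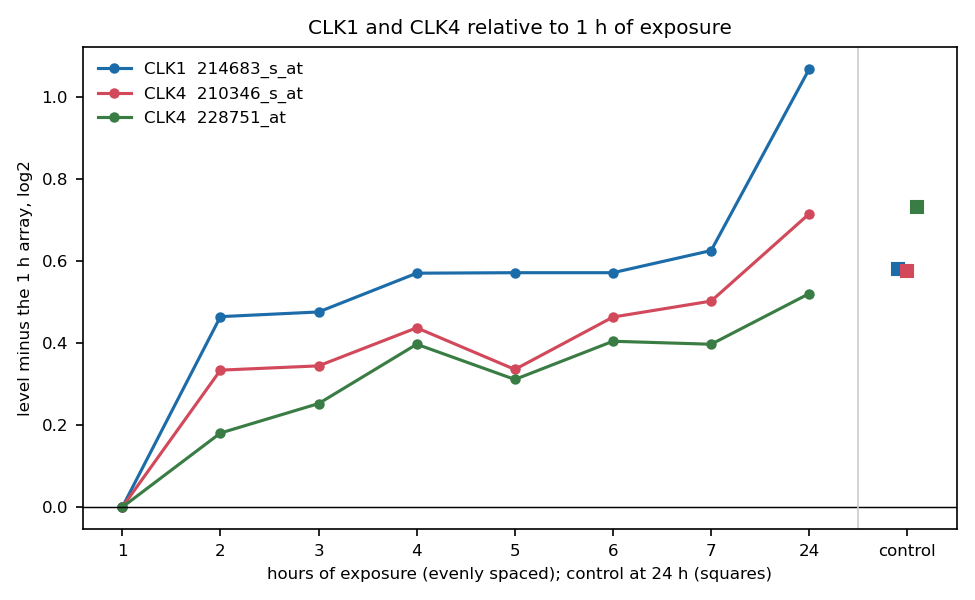
Level of the 3 tested CLK1 and CLK4 probe sets minus their own level at 1 h (vertical axis, log2) on the arrays of 1 to 7 h, 24 h and the control (horizontal axis, evenly spaced). Each point is 1 array and squares are the control. At 24 h the lines reach 1.07, 0.72 and 0.52; the control square of CLK4 228751_at lies above its whole line.

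Over the 9 genes together, 4 of the 29 tested probe sets fell and none rose in the mean of 1 to 7 h against the control. Of all probe sets tested 10.6% were called, 6.39% lower and 4.2% higher, so in this fit the share here was near the background. The direction depended on the scaling: with the arrays shifted to 1 median 2 were called higher and 3 lower, and with another quantile normalization 2 higher and 2 lower, the 2 higher being those of SRSF5 both times. The median difference was -0.14, against -0.008 over all tested probe sets. At 24 h, 2 of the 29 fell and none rose, against 4.43% of all called, 2.61% lower and 1.82% higher. The median difference at 24 h was -0.36, against 0.008 over all. At 24 h 22 of the 29 probe sets were below the control, against 47.4% of all tested. The control was above all 8 exposed arrays in 9 of the 29, against 23.6% of all, and below all 8 in 2, both of SRSF5, against 19.8%. Probe sets of 1 gene share their transcripts, so these counts are not counts of independent genes.

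**Figure D3:**
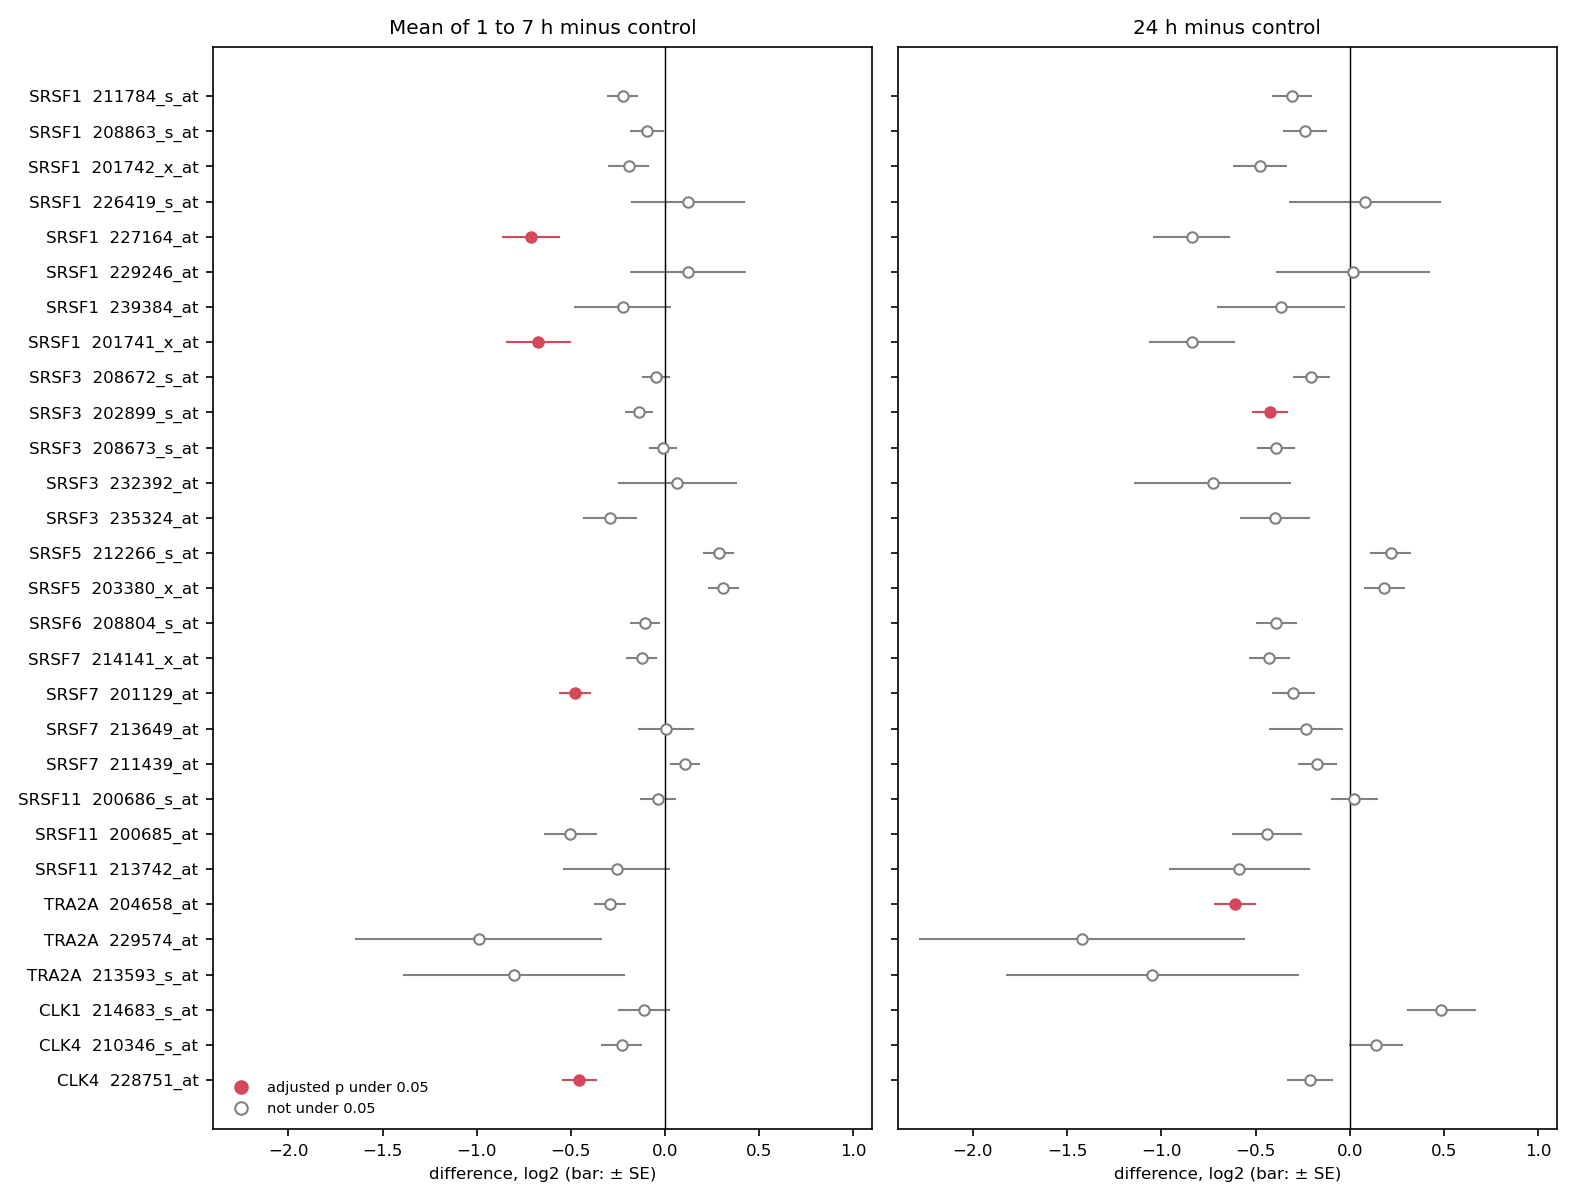
Difference from the control (horizontal axis, log2, bars ± SE from limma) of each tested probe set (vertical axis), for the mean of the 7 hourly arrays (left) and the 24 h array (right). Filled red points have an adjusted p under 0.05: 4 on the left and 2 on the right, all below 0. The widest bars belong to TRA2A 229574_at and 213593_s_at.

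SRSF1, the best known SR protein and a splicing activator, had the most probe sets. Its probe set 227164_at read 7.72, 7.75, 8.08, 7.98, 8.37, 8.08 and 8.12 at 1 to 7 h, 7.89 at 24 h and 8.73 in the control. All 8 exposed arrays were below the control. The mean of 1 to 7 h fell by 0.71 ± 0.15 against the control (1.64-fold, adjusted p = 0.0250), and 24 h was 0.84 ± 0.20 lower (adjusted p = 0.0588). The dimmer 201741_x_at read 5.39, 5.47, 5.37, 4.94, 5.38, 5.40 and 5.38 at 1 to 7 h, 5.17 at 24 h and 6.01 in the control, again with no overlap. It fell by 0.67 ± 0.17 in the mean of 1 to 7 h (adjusted p = 0.0437) and was 0.84 ± 0.23 lower at 24 h (adjusted p = 0.0799). Its name marks probes that can also match other sequences. The call of 227164_at ended without the 1 h, 2 h or 4 h array, with no time term and with another quantile normalization, at adjusted p of 0.0501 to 0.0637. That of 201741_x_at ended without any 1 of the 1, 2, 3, 6 and 7 h arrays, with no filter on dim probe sets and with either other scaling, at 0.0514 to 0.0803.

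The other 6 SRSF1 probe sets did not pass. The brightest, 211784_s_at, lay between 12.33 and 12.54 in exposed arrays and at 12.68 in the control, a difference of -0.23 ± 0.08 in the mean of 1 to 7 h (adjusted p = 0.112). The probe set designed from the RefSeq mRNA, 201742_x_at, was 0.19 ± 0.11 lower at 1 to 7 h and 0.48 ± 0.14 lower at 24 h, with adjusted p of 0.290 and 0.102. 208863_s_at differed by -0.10 ± 0.09 and -0.24 ± 0.12. In contrast, 226419_s_at and 229246_at averaged 0.12 ± 0.30 and 0.12 ± 0.31 above the control at 1 to 7 h, and 239384_at averaged 0.23 ± 0.26 below it.

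Those last 3 SRSF1 probe sets were highest at 5 h. 226419_s_at read 9.31, 9.46, 9.60, 9.78, 10.19, 9.37 and 9.26 at 1 to 7 h, 9.53 at 24 h and 9.45 in the control. 229246_at read 7.55 at 5 h, 6.57 to 7.24 in the other 7 exposed arrays and 6.83 in the control. 239384_at read 6.60 at 5 h, 5.72 to 6.19 in the others and 6.31 in the control. Relative to the mean of 4 h and 6 h, the 5 h array was 0.61, 0.55 and 0.58 higher in these 3, and 0.35 higher in 227164_at and 0.22 higher in 201741_x_at. The differences in 211784_s_at, 201742_x_at and 208863_s_at were between -0.06 and 0.05.

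SRSF3, the smallest SR protein, was lowest at 24 h in 4 of its 5 tested probe sets. The RefSeq-designed 202899_s_at read 11.56, 11.64, 11.68, 11.64, 11.72, 11.72 and 11.83 at 1 to 7 h, 11.40 at 24 h and 11.82 in the control. It fell by 0.42 ± 0.10 at 24 h against the control (1.34-fold, limma adjusted p = 0.0487), while the mean of 1 to 7 h was 0.14 ± 0.07 lower (adjusted p = 0.255). The call ended without any 1 of the 1, 2, 3, 4, 6 and 7 h arrays, at adjusted p of 0.0568 to 0.0948, and with no filter on dim probe sets (0.0961), the arrays shifted to 1 median (0.0701) or no time term (0.119). 208673_s_at read 10.74 at 24 h, 11.01 to 11.23 at 1 to 7 h and 11.14 in the control (24 h minus control -0.39 ± 0.10, adjusted p = 0.0649). 208672_s_at differed from the control by -0.20 ± 0.10 at 24 h, and 235324_at by -0.40 ± 0.19.

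The SRSF3 probe set 232392_at moved over a wider range than the others of its gene. It read 7.77, 7.53, 7.75, 7.99, 8.57, 7.54 and 8.09 at 1 to 7 h, 7.10 at 24 h and 7.83 in the control. The 5 h array was 0.81 above the mean of 4 h and 6 h, and the 24 h array was 0.73 ± 0.42 below the control (adjusted p = 0.350). The dim 237485_at stayed between 2.74 and 3.02.

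SRSF5, an SR protein known from insulin-regulated splicing, was the only one of the 9 genes with every exposed array above the control in each tested probe set. 212266_s_at read 11.55, 11.55, 11.53, 11.48, 11.30, 11.35 and 11.37 at 1 to 7 h, 11.38 at 24 h and 11.16 in the control. The RefSeq-designed 203380_x_at read 11.18, 11.22, 11.21, 11.17, 10.99, 10.95 and 10.91 at 1 to 7 h, 10.96 at 24 h and 10.78 in the control. In the mean of 1 to 7 h the probe sets were 0.29 ± 0.08 and 0.31 ± 0.08 above the control, with adjusted p of 0.0635 and 0.0505, and did not pass. Both passed with the arrays shifted to 1 median (adjusted p = 0.0180 and 0.0247), with another quantile normalization (0.0403 and 0.0443), with a mean of at least 6 (0.0460 and 0.0357) and with robust estimation (0.0181 and 0.0150). Without the 5 h array both rose, by 0.31 and 0.33 (adjusted p = 0.0158 and 0.0252), against 9.53% of all probe sets called higher. Neither passed with no filter on dim probe sets (limma adjusted p = 0.106 and 0.0863), with the hour on the log2 scale (0.0657 and 0.0793) or with no time term (0.152 and 0.179). Nor did either pass without any 1 of the 1, 2, 3, 4, 6 and 7 h arrays, at 0.0537 to 0.126. Both were highest in the arrays of 1 to 3 h, with slopes of -0.043 and -0.056 per hour that did not pass (adjusted p = 0.307 and 0.231). The dim 210077_s_at lay between 4.00 and 4.41.

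SRSF6, an SR protein that binds exonic enhancers, had 1 tested probe set. 208804_s_at read 10.85, 10.90, 10.88, 10.91, 11.02, 10.91 and 10.87 at 1 to 7 h, 10.62 at 24 h and 11.01 in the control. The 24 h array was the lowest of all 9, 0.39 ± 0.11 below the control (adjusted p = 0.0826), while the mean of 1 to 7 h was 0.11 ± 0.08 below it (adjusted p = 0.450). Its RefSeq-designed probe set 206108_s_at was dim, at 4.06 to 4.70, and also lowest at 24 h.

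SRSF7, an SR protein with a zinc knuckle beside its RNA-binding domain, held the one probe set called different from the others of its gene. 201129_at read 9.60, 9.67, 9.72, 9.61, 9.63, 9.81 and 9.79 at 1 to 7 h, 9.87 at 24 h and 10.17 in the control. All 8 exposed arrays were below the control, and the mean of 1 to 7 h fell by 0.48 ± 0.09 (1.39-fold, adjusted p = 0.0138). The other 3 probe sets differed from the control by -0.12 ± 0.08 (214141_x_at), 0.01 ± 0.15 (213649_at) and 0.10 ± 0.08 (211439_at). At 24 h 214141_x_at was lowest, 0.43 ± 0.11 below the control (adjusted p = 0.0651), and 213649_at and 211439_at were 0.23 ± 0.20 and 0.17 ± 0.10 below it. 201129_at instead was highest of its exposed arrays at 24 h, 0.30 ± 0.11 below the control (adjusted p = 0.175).

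Unequal change among probe sets of a gene was tested with limma's diffSplice, which pools the spread over the probe sets of a gene. In the mean of 1 to 7 h against the control, SRSF7 201129_at fell by 0.47 ± 0.12 relative to the other SRSF7 probe sets (adjusted p = 0.0210). It was the only one of the 27 probe sets tested here, against 4.95% of all 15951, with 2.64% called lower. The call ended without the 4 h array (adjusted p = 0.0582), with no time term (0.0633), with the arrays shifted to 1 median (0.0511) and when the difference was taken within each array (0.0709). Taken within each array, 1 of the 27 was still called, lower, but it was another probe set than 201129_at. By p, SRSF7 211439_at came next at 0.30 ± 0.12 (adjusted p = 0.167), then SRSF1 227164_at at -0.55 ± 0.26 (adjusted p = 0.254) and SRSF1 201741_x_at at -0.50 ± 0.26 (adjusted p = 0.313). At 24 h against the control none of the 27 was called, against 0.997% of all, and none was called for 1 and 2 h minus 3 and 4 h, against 0.0313%.

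SRSF11, an arginine- and serine-rich relative of the SR proteins, had no probe set that passed with all arrays in the fit. The RefSeq-designed 200686_s_at lay between 11.46 and 11.71 in exposed arrays, with the control inside at 11.61. 200685_at read 8.65, 8.54, 8.71, 8.78, 8.98, 8.60 and 8.71 at 1 to 7 h, 8.77 at 24 h and 9.21 in the control, and all exposed arrays were below it. Its mean of 1 to 7 h was 0.50 ± 0.14 lower (adjusted p = 0.0585), and it passed without the 5 h array (-0.55, adjusted p = 0.00745). 213742_at was highest at 4 h (6.69) and 5 h (6.89), at 6.02 to 6.28 in the other exposed arrays and at 6.61 in the control. The dim 236948_x_at lay between 3.53 and 4.11.

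TRA2A, a splicing activator related to the Drosophila sex-determination factor transformer-2, had the widest ranges of the 9 genes. The RefSeq-designed 204658_at read 8.98, 9.02, 9.08, 8.88, 8.99, 8.95 and 8.93 at 1 to 7 h, 8.66 at 24 h and 9.27 in the control. All exposed arrays were below the control. It fell by 0.61 ± 0.11 at 24 h (1.53-fold, adjusted p = 0.0270), and the mean of 1 to 7 h was 0.29 ± 0.08 lower (adjusted p = 0.0621). The call at 24 h was lost on leaving out 2 h (0.0599) or 3 h (0.0505) and with no filter on dim probe sets (0.0518).

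The other TRA2A probe sets had much wider ranges. 229574_at read 6.79, 6.53, 6.94, 7.04, 8.62, 6.78 and 6.54 at 1 to 7 h, 6.60 at 24 h and 8.02 in the control. 213593_s_at read 6.20, 6.13, 6.59, 6.91, 8.08, 6.45 and 6.36 at 1 to 7 h, 6.43 at 24 h and 7.48 in the control. In both, the 5 h array was above the control and the other 7 exposed arrays were below it without overlap. The dim 213575_at and 227939_s_at had the same order, at 5.44 and 4.43 at 5 h, 4.47 to 4.75 and 3.42 to 3.67 in the other exposed arrays, and 5.18 and 4.25 in the control.

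The 5 h array exceeded the mean of 4 h and 6 h by 1.71 in 229574_at, or 3.27-fold, and only 7 of the 22504 tested probe sets had a larger excess. In 213593_s_at it was 1.40, with 33 larger, and in 204658_at 0.08. At 24 h 229574_at was 2.68-fold and 213593_s_at 2.07-fold below the control, or -1.42 ± 0.87 and -1.05 ± 0.78. At 24 h 213593_s_at did not pass with or without the 5 h array, and 229574_at did not pass with that array in the fit. With the 5 h array in the fit their differences in the mean of 1 to 7 h were -0.99 ± 0.65 and -0.80 ± 0.59, with adjusted p of 0.374 and 0.428. Without it both fell, by 1.25 and 1.04 (adjusted p = 0.00429 and 0.0225), and 229574_at fell by 1.42 at 24 h (adjusted p = 0.0124).

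**Figure D4:**
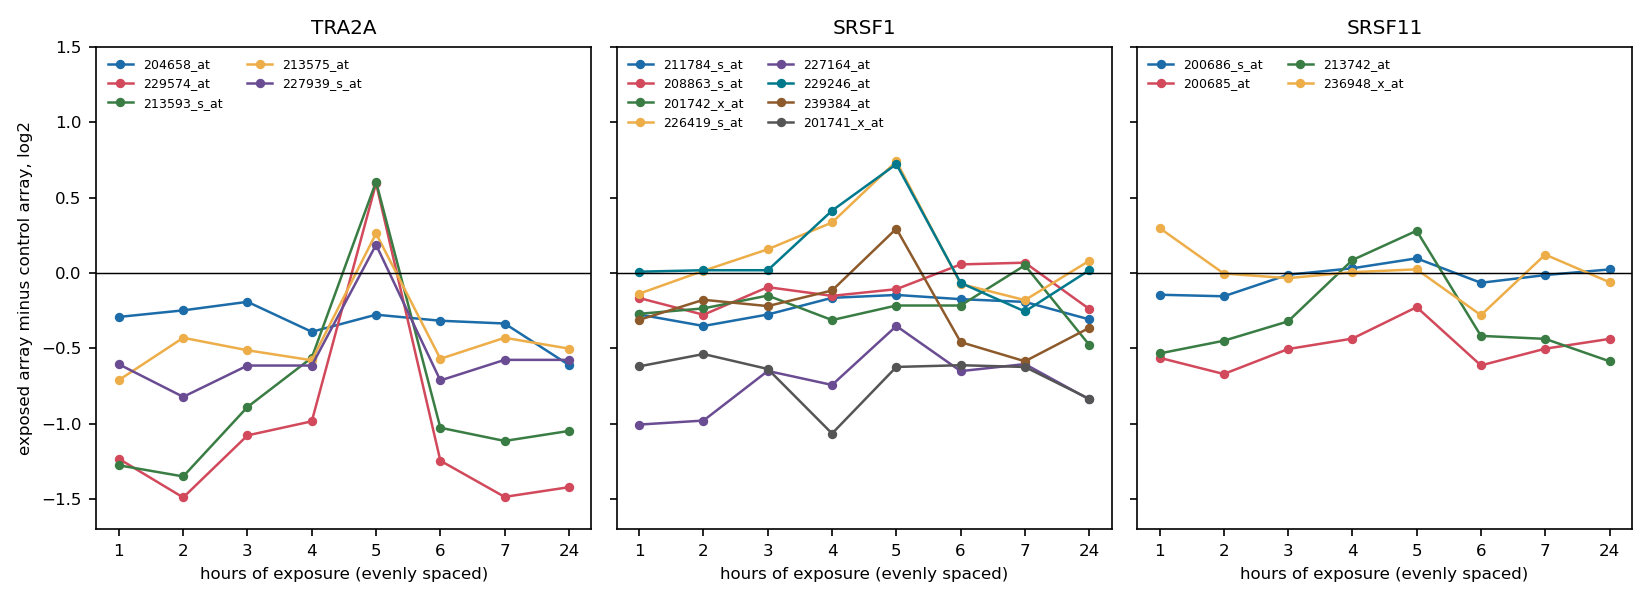
Exposed array minus control array (vertical axis, log2) for every probe set of TRA2A, SRSF1 and SRSF11 on the arrays of 1 to 7 h and 24 h (horizontal axis, evenly spaced); each point is 1 array. TRA2A 229574_at and 213593_s_at cross 0 at 5 h alone, while 204658_at stays between its 24 h value of -0.61 and 0.

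The peak at 5 h recurred in other members. The 5 h array was highest of the 8 exposed in 14 of the 29, against 11.9% of all tested, and at least 0.5 above the mean of 4 h and 6 h in 6, against 2.39%. The 5 h array and the control were the 2 highest arrays in 8, against 6.03%. The 6 were SRSF1 226419_s_at, 229246_at and 239384_at, SRSF3 232392_at and TRA2A 229574_at and 213593_s_at. The 5 h array is also the one with the widest scatter and the largest actin difference, and the part of these in the pattern was not tested.

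Without the 5 h array, 10 of the 29 probe sets were called in the mean of 1 to 7 h against the control, 8 lower and 2 higher, against 21.4% of all, with 11.8% lower and 9.53% higher. These were the 4 called with it, both SRSF5, SRSF11 200685_at and all 3 tested TRA2A probe sets. At 24 h 7 fell, against 13.1% of all called and 7% called lower: SRSF1 227164_at, SRSF3 202899_s_at and 208673_s_at, SRSF6 208804_s_at, SRSF7 214141_x_at, and TRA2A 204658_at and 229574_at. Unequal change was called for 3, against 13.1% of all. TRA2A 204658_at stood 0.85 above the other TRA2A probe sets (adjusted p = 0.0390), while SRSF1 227164_at and SRSF7 201129_at stood 0.56 and 0.44 below those of their genes (adjusted p = 0.0252 and 0.0121).

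The 24 h array was lowest of the 8 exposed arrays in 11 of the 29 probe sets, against 14.4% of all tested, and in each of these 11 it was also below the control, against 11.5% of all. They include the tested probe set of SRSF6, the RefSeq-designed ones of SRSF1, SRSF3 and TRA2A, and 3 of the 4 of SRSF7. The tested RefSeq-designed ones of SRSF5 and SRSF11 were not among them. The 24 h array was highest in 4, against 20.2%: the 3 of the CLK genes and SRSF7 201129_at. The limma contrasts between pairs of hours called none of the 29 and none of the 22504. For 1 and 2 h minus 3 and 4 h 2152 had an unadjusted p under 0.05, 7 of them here. For 6 and 7 h minus 3 and 4 h it was 1203, 8 of them here. The hours within a pair stood in for replicates, so a change between them, as from 1 h to 2 h, counted as error and was not tested.

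A 2-fold distance from the control was reached in at least 1 exposed array by 4 of the 29 probe sets, all lower, against 2.71% of all tested for lower. They were TRA2A 229574_at and 213593_s_at, and SRSF1 227164_at (1 h) and 201741_x_at (4 h). None was 2-fold higher, against 1.04% of all.

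The rest of the splicing machinery, taken by the brightest probe set of each gene, had few calls. Over all 12402 genes 10.8% were called in the mean of 1 to 7 h and 4.89% at 24 h against the control. Of 10 other kinases of SR proteins 1 fell, SRPK1 (-0.29 ± 0.07, adjusted p = 0.0371), which phosphorylates SR proteins in the cytoplasm before their import. Of 23 SR-related and speckle proteins, RSRP1 fell by 0.81 ± 0.18 (adjusted p = 0.0289) and RSRC1 rose by 0.56 ± 0.08 (adjusted p = 0.00499) at 1 to 7 h. At 24 h RSRC1 rose by 0.60 ± 0.10 and ARGLU1, a coactivator, fell by 0.61 ± 0.09 (adjusted p = 0.0213 and 0.0174).

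Of 21 hnRNP proteins, which often oppose SR proteins, HNRNPH3 fell by 0.47 ± 0.10 and HNRNPF rose by 0.41 ± 0.10 at 1 to 7 h (adjusted p = 0.0278 and 0.0364), and none was called at 24 h. Of 27 core spliceosome genes PRPF3, a protein of the U4/U6 particle, fell by 0.41 ± 0.10 (adjusted p = 0.0417) at 1 to 7 h. None of 4 other SR and TRA2 genes, 9 genes of nonsense-mediated decay and 6 phosphatases passed in either contrast. The list medians at 24 h were -0.30 for speckle proteins, -0.18 for hnRNP proteins, -0.16 for the core spliceosome, -0.15 for nonsense-mediated decay and -0.16 for the phosphatases. They were -0.02 for the other SR genes and the other kinases, -0.20 for the 9 measured genes here and 0.02 over all genes.

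**Figure D5:**
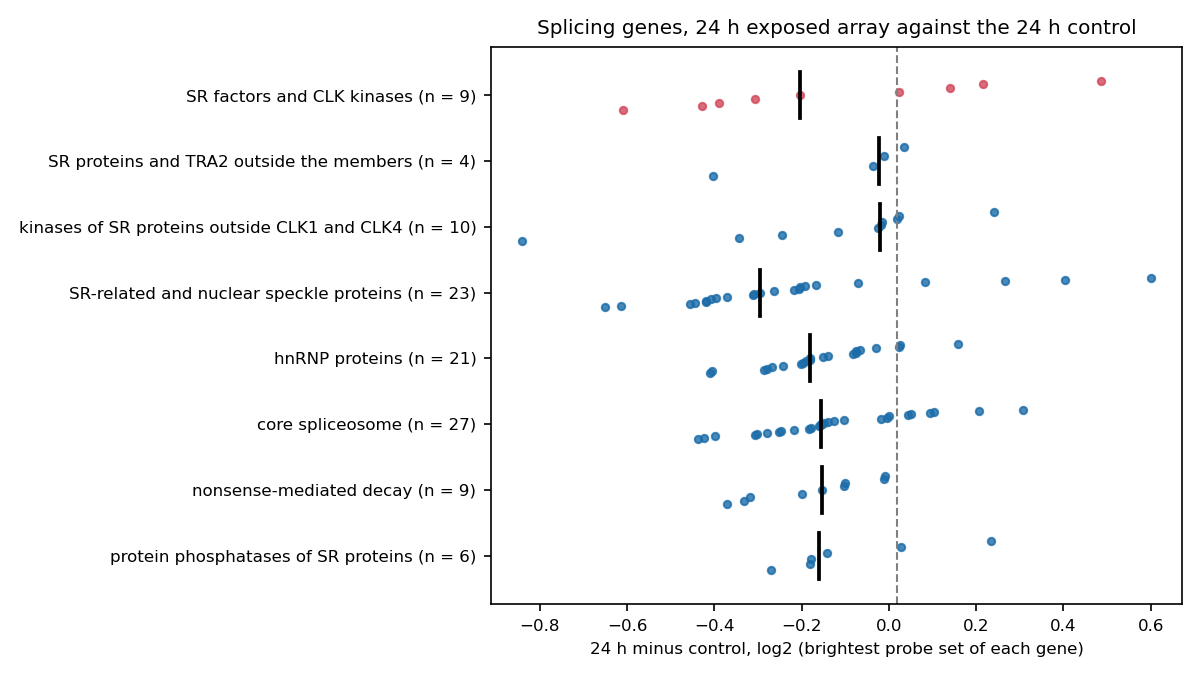
Difference of the 24 h array from the control (horizontal axis, log2) for the brightest probe set of each gene, by list (vertical axis); each point is a gene, black bars are list medians and the dashed line is the median of all 12402 genes (0.02). The SR factors and CLK kinases (red) have a median of -0.20, with CLK1 at 0.49 on the right and TRA2A at -0.61 on the left.

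Genes most like a member were ranked by Pearson's r of the brightest probe sets over the 9 arrays, among 2011 genes with an SD of at least 0.2. The arrays are shared, so r is a description. CLK4 was most like CLK1 (r = 0.941), then UFSP1 (0.877), UPP1 (0.710), P2RY2 (0.706) and ZNF267 (0.689). CLK1 was most like TRAF1 (0.797), UFSP1 (0.729), RBAKDN (0.627), PPP1R3F (0.596) and LYRM4-AS1 (0.593). CLK4 itself had an SD of 0.199 and so was not a candidate for CLK1.

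The SRSF1 and SRSF3 probe sets used, 211784_s_at and 208672_s_at, varied little over the 9 arrays. Their SDs were 0.106 and 0.082, below the limit of 0.2 set for candidates, so these likenesses rest on small differences. SRSF1 was most like LARP4 (0.952), CCDC15 (0.948), NEIL3 (0.947), CDCA2 (0.934) and RAD54B (0.924). SRSF3 was most like ATAD2 (0.929), CDC6 (0.919), TIPIN (0.902), UHRF1 (0.896) and CHRNA5 (0.882). CDC6 starts DNA replication, and UHRF1 maintains DNA methylation in dividing cells. No gene was named for both SRSF1 and SRSF3, while UFSP1 was named for both CLK1 and CLK4.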

How the data were processed

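Total RNA of 9 MiaPaCa2 samples was hybridised to Affymetrix arrays. The deposited log2 values were made by the authors with RMA, per the submitters' processing notes. The RMA version, not given in the sources used here, is unknown. A deposited filtered table of 6370 probe sets held the same values to within 5e-09, including 4 of the 37 probe sets here. Groups came from the labels. Symbols came from the platform annotation: 41097 of 54675 probe sets had 1 symbol, 1801 several and 11777 none, and those with several or none were left out. Promoters came from RefSeq.

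Probe sets with a mean of at least 5 were fitted with limma 3.58.1 in R 4.3.3 (lmFit, eBayes and diffSplice, two-sided, Benjamini-Hochberg over all tested, threshold 0.05) on the centred hour and indicators of the 24 h and control arrays, with 5 residual and 3.28 prior degrees of freedom. Pairs of hours were compared in a fit with 3 residual degrees of freedom, in which the hours within a pair stood in for replicates. Fits were tested on simulated data.

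Every member probe set was named; of other lists, up to 3 genes that passed with the largest difference in a contrast; by likeness, 5 genes for CLK1, CLK4, SRSF1 and SRSF3. Genes ranked beside CLK1, motifs and counts of array order were chosen after values were seen. The members and lists were chosen with earlier results of these data known. Precision is limited by the number of arrays. Python 3.11.15, pandas 2.3.3, numpy 2.4.6 and matplotlib 3.10.9 prepared tables and figures.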

Additional observations from a re-analysis of the deposited data

How the results depend on the processing

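No paired analysis was possible because each group holds 1 array. Of the 29 tested probe sets, the count called in the mean of 1 to 7 h against the control was 4, against 2383 of all 22504. It was 7 of 28 with a mean of at least 6 (2422 of all 16457), and 9 with robust estimation and an intensity trend (2824 of 22504). With 1 probe set a gene it was 2 of 9 (1721 of 12402), 1 higher (SRSF5 212266_s_at) and 1 lower. None of the 4 is the brightest probe set of its gene, so none of the 4 was in that fit. With no time term the count was 2 (2023 of 22504). It was 0 in the authors' filtered table, which holds 4 of them, and 2 to 10 with an hourly array left out (2 without the 1 h or the 2 h array, 10 without 5 h). The count at 24 h was 2, against 997 of all 22504. It was 0 of 37 with no filter (508 of all 41097), 5 of 28 with a mean of at least 6 (1341 of 16457), and 7 with robust estimation (1590 of 22504). It was 1 with arrays shifted to 1 median (1379 of 22504), 1 with no time term (718 of 22504) and 0 in the filtered table. With an hourly array left out it was 0 to 7 (0 without 2 h or 3 h, 1 without 1 h, 6 h or 7 h, 7 without 5 h). For unequal change in the mean of 1 to 7 h the count was 1 of 27, against 789 of all 15951. It was 0 with arrays shifted to 1 median (942 of all) or no time term (643 of all). With an array left out it was 0 to 3 (0 without 4 h, 520 of all, and 3 without 5 h, 2092 of all). For 1 and 2 h minus 3 and 4 h it was 0, against 5 of all. There it was 0 to 1 with an array left out (1 without 3 h, SRSF1 201741_x_at, against 3 of all). Of the 29 probe sets, 4 were 2-fold from the control in at least 1 exposed array, against 2.71% of all lower and 1.04% higher. At 1.5-fold it was 12, and the share over all probe sets was not counted, so 12 has no background here. No called difference reversed. Uncalled ones close to 0 changed sign in 5 probe sets for the mean of 1 to 7 h against the control: SRSF3 208672_s_at (-0.05, 0.03 with arrays shifted to 1 median), SRSF3 208673_s_at (-0.01, 0.07 shifted), SRSF11 200686_s_at (-0.04, 0.04 shifted), SRSF3 232392_at (0.07, -0.05 without 5 h) and SRSF7 213649_at (0.006, -0.03 without 5 h or 7 h). Uncalled slopes changed sign in 7. The causes were not tested.

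Over all probe sets the call counts against the control, 2383 at 1 to 7 h and 997 at 24 h, were 1414 to 4808 and 297 to 2944 with an array left out, 163 and 15 in the filtered table, and at 24 h 508 with no filter and 1590 with robust estimation. Unequal change, 789 and 159, ran over 468 to 2092 and 58 to 839 with an array left out, and was 9 at 24 h when taken within each array, an alternative added after seeing the data. At 1 to 7 h 946 were higher and 1437 lower, against 2214 and 1133 with arrays shifted to 1 median and 1396 and 1299 with another quantile normalization; at 24 h 410 and 587, against 784 and 595 and 682 and 661. Dim probe sets, 8 of 37, limit what could be tested.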
